A study of Mus musculus with 6 samples.

Results

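Small leucine-rich proteoglycans are secreted matrix proteins whose curved core of leucine-rich repeats binds collagen fibrils and growth factors. This section describes 9 of their genes, Dcn, Bgn, Aspn, Lum, Fmod, Prelp, Omd, Ogn and Podn, chosen by family membership and found by the transcript accession of each probe. They are read by 10 probes, of 56570 probes on the array that stand for 44908 genes or unnamed transcripts. Prelp has 2 probes and every other member has 1.

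The samples were NIH3T3 cells, an established line of mouse embryonic fibroblasts, kept in medium with 2% serum. One group stably expressed GGCT (gamma-glutamylcyclotransferase, an enzyme of glutathione breakdown) from a retroviral pCX4bsr vector, and the other carried the control vector, with 3 arrays each. The titles number the experiments 1 to 3, and the design text calls them independent. The labels do not say whether a population was 1 clone, whether the infection was repeated, or from which species the expressed GGCT came, so the p-values measure only the spread between these experiments.

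Fibroblasts are a main source of these proteins in connective tissue. Decorin and biglycan, the products of Dcn and Bgn, carry chondroitin or dermatan sulfate chains, and lumican and fibromodulin (Lum, Fmod) can carry keratan sulfate. By coating collagen fibrils they set fibril diameter and spacing, and several of them hold TGF-beta or signal through cell surface receptors. Many of the genes lie side by side in the genome. Dcn and Lum share a cluster with Kera and Epyc on chromosome 10, Prelp and Fmod one with Optc on chromosome 1, and Aspn, Omd and Ogn one with Ecm2 on chromosome 13.

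With GGCT, 2 of the 9 genes rose (Lum and Dcn) and 6 fell (Prelp, Aspn, Ogn, Omd, Fmod and Bgn), while Podn was well above background on only 1 array and was not tested. Over all 23850 genes tested, 17.5% were called higher and 17.3% lower, 34.8% in either direction (limma, adjusted p under 0.05). For all 8 tested members the control and GGCT arrays did not overlap, as was so for 49.4% of all genes tested. The falls ran from 1.57-fold for Bgn to 27.1-fold for Prelp. Of the 8 members tested, 6 were well above background on all 6 arrays. Fmod and Aspn entered the test through the control arrays, where they are brighter, so the count of members called is a description and not support for a shift. Less RNA per cell and fewer cells that make it cannot be told apart in these bulk samples.

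The arrays had 54.6% to 61.7% of their probes well above background, and their 75th percentiles lay between 380.0 and 471 intensity units. Ggct, read by 1 mouse probe, was 0.62 ± 0.12 (SE) higher on the log2 scale with GGCT (limma adjusted p = 0.0111). That call was lost in 3 of 22 alternatives, which were no filter on dim probes (adjusted p = 0.0506), leaving out the pair numbered 2 (0.47, adjusted p = 0.0756) and leaving out the pair numbered 3 (0.67, adjusted p = 0.108). Whether it detects the introduced GGCT is not known from the labels. Of 11 fibroblast markers, 10 were well above background on all 6 arrays, among them Col1a1, Col1a2, Vim, Fn1 and Thy1, and Fap was not on any.

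The windows of 250 bases before the start of the 4 genes with the largest falls are given here because 3 of them are neighbours that fell together. They are RefSeq sequences of build GRCm38.p6, written 5′ to 3′ along the gene. Capitals mark matches, on either strand, to any of 6 motifs, which were the TATA box TATAAA, the CCAAT box CCAAT, the GC box GGGCGG, the AP-1 site TGANTCA, the TEAD site GGAATG and the GLI site GACCACCCA.
Aspn: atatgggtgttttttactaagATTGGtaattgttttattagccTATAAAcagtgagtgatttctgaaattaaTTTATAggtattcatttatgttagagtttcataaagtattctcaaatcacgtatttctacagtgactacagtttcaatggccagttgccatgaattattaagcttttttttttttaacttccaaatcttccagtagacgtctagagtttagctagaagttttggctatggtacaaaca
Omd: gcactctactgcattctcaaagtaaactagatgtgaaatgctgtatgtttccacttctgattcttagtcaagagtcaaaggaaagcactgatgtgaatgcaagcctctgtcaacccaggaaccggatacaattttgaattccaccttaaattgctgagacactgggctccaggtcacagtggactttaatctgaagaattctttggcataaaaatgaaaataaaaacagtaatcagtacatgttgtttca
Ogn: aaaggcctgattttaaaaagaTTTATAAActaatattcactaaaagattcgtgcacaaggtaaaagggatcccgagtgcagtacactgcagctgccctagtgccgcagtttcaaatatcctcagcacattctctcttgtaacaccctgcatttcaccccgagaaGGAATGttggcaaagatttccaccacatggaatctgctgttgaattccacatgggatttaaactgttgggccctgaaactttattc
Prelp: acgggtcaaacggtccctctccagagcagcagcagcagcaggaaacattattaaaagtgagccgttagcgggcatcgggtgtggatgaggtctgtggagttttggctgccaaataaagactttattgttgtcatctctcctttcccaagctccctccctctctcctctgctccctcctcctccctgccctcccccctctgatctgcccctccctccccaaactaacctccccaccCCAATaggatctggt

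Aspn lies at chr13:49544193-49544442, Omd at chr13:49582212-49582461 and Ogn at chr13:49607765-49608014, all on the plus strand, and Prelp at chr1:133921402-133921651 on the minus strand. The Aspn window holds a TATAAA match on each strand, 202 to 207 and 173 to 178 bases before the start, and a CCAAT match. The Ogn window holds 2 overlapping TATAAA matches on opposite strands, 222 to 229 bases before the start, and a GGAATG match. Whether any match acts in the promoter was not tested. In the Prelp window CCAAT was found 11 to 15 bases before the start, and the Omd window held none of the 6 motifs. Among 32851 windows of this length, 12.4% hold TATAAA, 33.8% CCAAT, 32.7% GGGCGG, 6.75% TGANTCA, 12.6% GGAATG and 0.225% GACCACCCA. The share of G and C was 30.0% for Aspn, 38.4% for Omd, 42.0% for Ogn and 55.6% for Prelp, against a median of 52.4% over all windows. Bgn, Fmod and Podn also have windows in this table, and 3 GGGCGG matches lie in the one of Bgn, 2 of which overlap. Dcn and Lum were matched to no window.

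Levels below are log2 intensities relative to the array's 75th percentile, so that 0 is that percentile, and are listed for experiments 1, 2 and 3. Differences are GGCT minus control on this log2 scale. Levels of different probes are not compared, since each probe binds with its own strength. The marker sums further down add probes all the same and carry this limit.

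**Figure D1:**
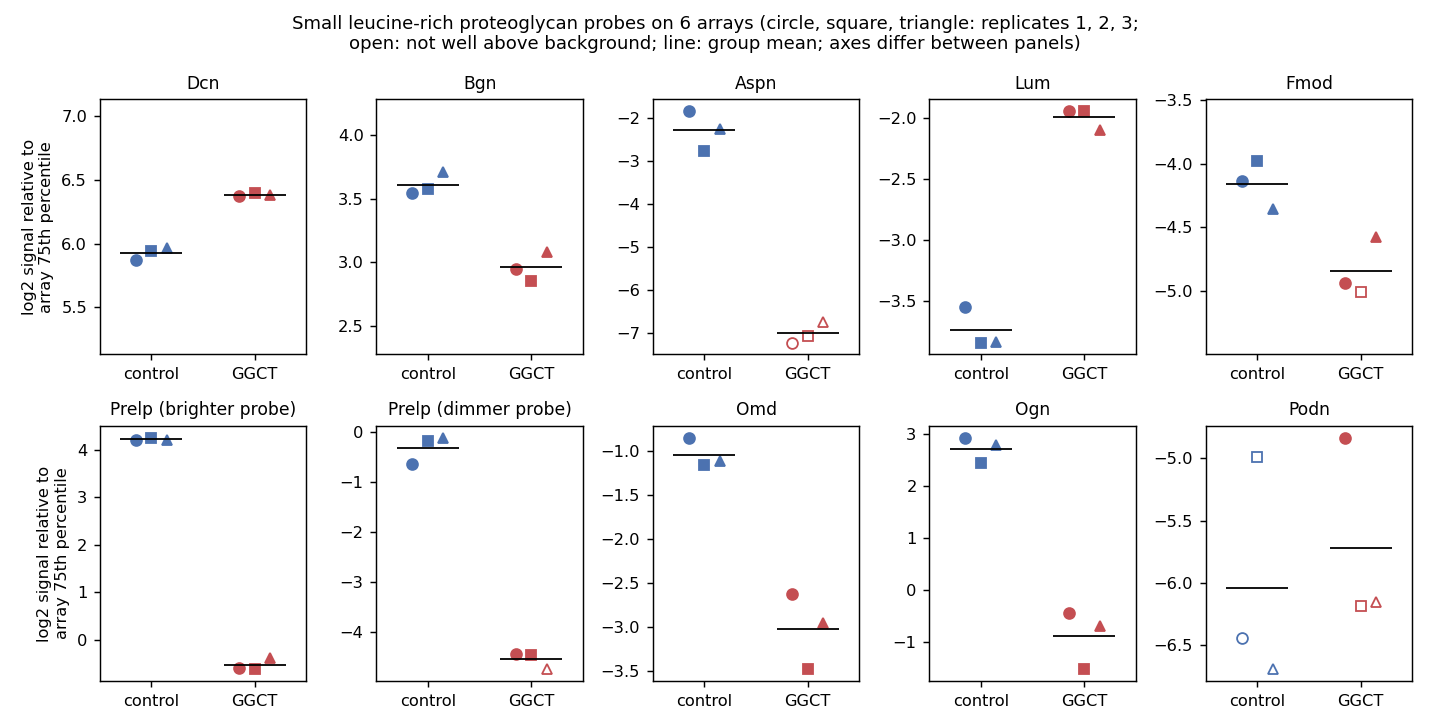
Log2 signal relative to the array's 75th percentile (vertical axes, which differ between panels) for the 10 probes on 3 control and 3 GGCT arrays; symbols stand for replicates 1 to 3, open symbols for spots not well above background and lines for group means. The groups do not overlap in any panel but that of Podn.

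Dcn encodes decorin, which binds fibrils of type I collagen and also TGF-beta. Its control arrays stood at 5.87, 5.95 and 5.96 and its GGCT arrays at 6.37, 6.40 and 6.38. All GGCT arrays were above all control arrays, and the GGCT values lay close together (SD 0.012, n = 3). The rise was 0.46 ± 0.07 (SE; 95% interval 0.28 to 0.64), or 1.37-fold (limma adjusted p = 0.00568). It was 0.50 on slide 1 and 0.43 on slide 2. Of the genes tested, 32.9% had a larger difference in either direction. The call was lost when the pair numbered 2 was left out (0.46, adjusted p = 0.0787) and when the pair numbered 3 was (0.48, adjusted p = 0.119).

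Bgn encodes biglycan, the closest relative of decorin and, once released from matrix, a ligand of the Toll-like receptors TLR2 and TLR4. It stood at 3.54, 3.57 and 3.71 in control cells and at 2.95, 2.85 and 3.08 with GGCT. The lowest control array was thus above the highest GGCT array. Bgn fell by 0.65 ± 0.10 (95% interval -0.89 to -0.41), or 1.57-fold (limma adjusted p = 0.00422), with -0.60 on slide 1 and -0.67 on slide 2. A larger difference in either direction was found for 20.6% of the genes tested. Leaving out the pair numbered 2 (-0.61, adjusted p = 0.0641) or 3 (-0.66, adjusted p = 0.0687) ended the call.

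Decorin and biglycan transcripts therefore moved in opposite directions. The difference of Dcn exceeded that of Bgn by 1.10 ± 0.08 (SE, n = 3 per group), and the ratio of the 2 probes was higher on every GGCT array than on any control array. With 3 arrays a group, the 2-sided exact permutation test, which did not use the pair numbers, cannot go below 0.1, which it gave here. In all, 7 pairs of members were compared in this way, and each had an exact permutation p of 0.1, before and after Benjamini-Hochberg adjustment.

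Aspn encodes asporin, a relative of decorin with a run of aspartate residues that binds collagen and inhibits TGF-beta. Its control arrays stood at -1.84, -2.78 and -2.25, all well above background. With GGCT the probe read -7.23, -7.07 and -6.74 and was not well above background on any array. Under the rule given next, Aspn was at least 6.19-fold lower with GGCT. For this bound the GGCT level was raised, array by array, to the dimmest signal that any flagged-present probe had there, wherever the Aspn signal lay under it. That signal is not a detection limit, since flags overlap in level. On the GGCT array of replicate 1, Myh11 was flagged present at -5.01 and Tie1 was not at -4.92. The measured means were -2.29 ± 0.47 and -7.01 ± 0.25 (SD, n = 3 each), and the measured difference of -4.72 ± 0.26 (SE) passed the test (limma adjusted p = 0.000119). On slide 1 that difference was -5.38 and on slide 2 -4.39. With normexp background, where an added offset compresses the differences of dim probes, it was -1.26 and still past the threshold (adjusted p = 0.000479).

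Lum encodes lumican, which spaces collagen fibrils and is needed for a clear cornea. It stood at -3.54, -3.84 and -3.83 in control cells and at -1.94, -1.94 and -2.09 with GGCT. Every array was well above background and the groups did not overlap. Lum had the larger of the 2 rises, 1.75 ± 0.11 (SE), or 3.35-fold (limma adjusted p = 0.000225), with 1.60 on slide 1 and 1.82 on slide 2. Of the genes tested, 3.44% had a larger difference in either direction. With normexp background the rise was 0.70, still past the threshold. Its excess over the rise of its neighbour Dcn was 1.29 ± 0.13 (SE), but with normexp background the rises were much closer, 0.70 for Lum and 0.51 for Dcn.

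Fmod encodes fibromodulin, the closest relative of lumican, which binds collagen and takes part in fibril assembly in tendon. The control arrays stood at -4.14, -3.98 and -4.35 and the GGCT arrays at -4.94, -5.01 and -4.58, where the array of replicate 2 was not well above background. The groups did not overlap, but the gap between them was narrow. Fmod fell by 0.68 ± 0.16 (SE; 95% interval -1.06 to -0.31), or 1.61-fold (limma adjusted p = 0.0181), and the difference of the pairs ran from -1.03 for number 2 to -0.22 for number 3. On slide 1 it was -0.80 and on slide 2 -0.63. A larger difference in either direction was found for 18.9% of the genes tested. The call was lost in 7 of 21 alternatives. Among them were normexp background (-0.24, adjusted p = 0.0682), no filter on dim probes (adjusted p = 0.0675) and slide 2 alone (adjusted p = 0.0795). Leaving out replicate 2 of the control (-0.60, adjusted p = 0.0637), of GGCT (-0.60, adjusted p = 0.0594) or of both groups (-0.51, adjusted p = 0.158) also ended it. Slide 2 alone and leaving out replicate 1 of both groups use the same arrays, and the 7 and the 21 count them separately. Lumican and fibromodulin, which bind an overlapping region of collagen, thus differed in direction, by 2.43 ± 0.23 (SE, exact permutation p = 0.1). With normexp background their differences lay nearer to each other, at 0.70 and -0.24.

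Prelp encodes a protein with a basic end that binds heparan sulfate and anchors basement membranes to collagen. Its brighter probe stood at 4.20, 4.25 and 4.20 in control cells and at -0.60, -0.63 and -0.40 with GGCT, well above background on all 6 arrays. The control arrays lay within an SD of 0.027 (n = 3). Prelp fell by 4.76 ± 0.09 (SE), or 27.1-fold (limma adjusted p = 9.00e-06), and 0.26% of the genes tested had a larger difference. The dimmer probe went from -0.65, -0.19 and -0.12 to -4.43, -4.46 and -4.74, where replicate 3 was not well above background. It fell by 4.22 ± 0.17, or 18.7-fold (limma over all probes, adjusted p = 4.32e-05). Over all 31110 probes tested, 17.7% were called higher and 17.5% lower. Slide 1 gave -4.80 and slide 2 gave -4.74 with the brighter probe, against -3.78 and -4.44 with the dimmer one. Both probes therefore moved in the same direction on both slides.

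Omd encodes osteomodulin, an acidic proteoglycan of bone that binds mineral and integrin. It read -0.85, -1.16 and -1.12 in control cells and -2.62, -3.48 and -2.96 with GGCT. Each control array was above each GGCT array, and all were well above background. Omd fell by 1.98 ± 0.23 (SE), or 3.93-fold (limma adjusted p = 0.00166). It was -1.77 on slide 1 and -2.08 on slide 2. Prelp, of the same class, had a difference 2.78 ± 0.27 (SE) further down, written as -2.78 for Prelp minus Omd (exact permutation p = 0.1).

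Ogn encodes osteoglycin, also called mimecan, a keratan sulfate proteoglycan of cornea and bone. It read 2.93, 2.45 and 2.79 in control cells and -0.43, -1.53 and -0.69 with GGCT. The groups were far apart, with the widest spread among GGCT arrays of any member well above background there on all 3 (SD 0.57, n = 3). Ogn fell by 3.60 ± 0.30 (SE), or 12.2-fold (limma adjusted p = 0.000525), with -3.36 on slide 1 and -3.73 on slide 2. Replicate 2 was the lowest array of each group for Ogn, and also for Omd and, among control arrays, for Aspn.

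Podn encodes podocan, a member of a more distant class that was first found in kidney. Its probe read -6.44, -4.99 and -6.70 in control cells and -4.84, -6.18 and -6.15 with GGCT. Only the GGCT array of replicate 1 was well above background, and the groups overlapped. No fold is given, because a probe this near background has no measured level in control cells. The exact permutation test of the 6 values gave p = 0.5.

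**Figure D2:**
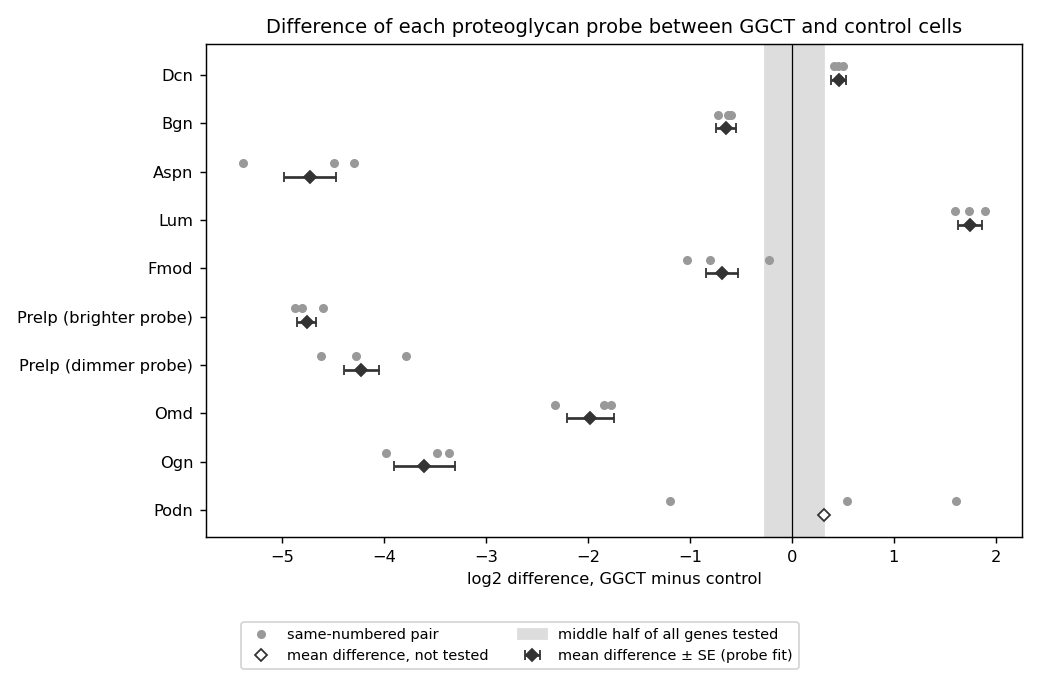
Log2 difference, GGCT minus control (horizontal axis), for each probe; diamonds with bars are the mean difference ± SE of the fit over all probes, grey dots the 3 same-numbered pairs, the open diamond an untested probe, and the shaded band the range from the lower to the upper quartile of all genes tested (-0.27 to 0.32). The 3 dots of every tested probe lie on one side of 0, and those of Podn lie on both.

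The neighbouring genes were read in order of their start positions in GRCm38.p6. Gene ends were not used, so a flanking gene can overlap a cluster. Beside the counts of flanking genes stand the shares over all genes tested, 17.5% called higher and 17.3% lower. Whether a region moved as a whole was not tested. In the cluster on chromosome 13, which runs Ecm2, Aspn, Omd, Ogn, all 4 genes were called lower. Ecm2, a relative that encodes an extracellular matrix protein, went from -4.25 ± 0.18 to -5.58 ± 0.56 (SD, n = 3 each) and fell by 1.33 ± 0.28 (SE, limma adjusted p = 0.0147). It passed the background flag on 3 control arrays and 1 GGCT array, and its call was lost in 5 of 21 alternatives (adjusted p up to 0.144), among them normexp background (-0.32). Of the 5 tested named genes on each side of this cluster, 6 were lower and 1 higher, with a median difference of -0.48 and a range from -1.25 (Card19) to 1.40 (Susd3). By start position, Cenpp came next on one side, with a difference of 0.22 (limma adjusted p = 0.210). Nol8 came next on the other and fell by 0.59. The differences of Aspn, Omd and Ogn were thus larger than those of all 10 flanking genes.

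On chromosome 1 the order is Optc, Prelp, Fmod. Prelp fell by 4.76 while Fmod fell by 0.68, so that Prelp moved further by 4.07 ± 0.11 (SE). The control mean of Fmod was -4.16, already near background, which limits how far its probe could fall. The excess of Prelp therefore depends on the starting levels and does not show that the neighbours responded differently. Optc, which encodes the eye protein opticin, passed the background flag with 1 of its 2 probes on 2 GGCT arrays and on 0 control arrays, so it was not tested. Of the 10 flanking genes, 2 were higher and 1 lower (Chil1, which fell by 2.85), and their median difference was 0.10. The nearest neighbours on each side, Zbed6 and Btg2, had differences of 0.23 and 0.02 that did not pass the test.

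In the chromosome 10 cluster, Dcn and Lum rose, and their other cluster members Kera (keratocan, of the cornea) and Epyc (epiphycan, of cartilage) passed the background flag nowhere. Of the 10 flanking genes, 7 were called higher and 1 lower, against 17.5% and 17.3% of all genes tested. Their median difference was 0.48, with a range from -0.37 to 1.08. The rise of Dcn (0.46) lay within that range and that of Lum (1.75) above it. Around Bgn on chromosome X, 6 of 10 flanking genes were higher and 1 lower (median 0.38), while Bgn itself fell. Haus7 and Atp2b3, on either side of Bgn, had differences of 0.80 (limma adjusted p = 0.00256) and 0.11 (adjusted p = 0.347).

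**Figure D3:**
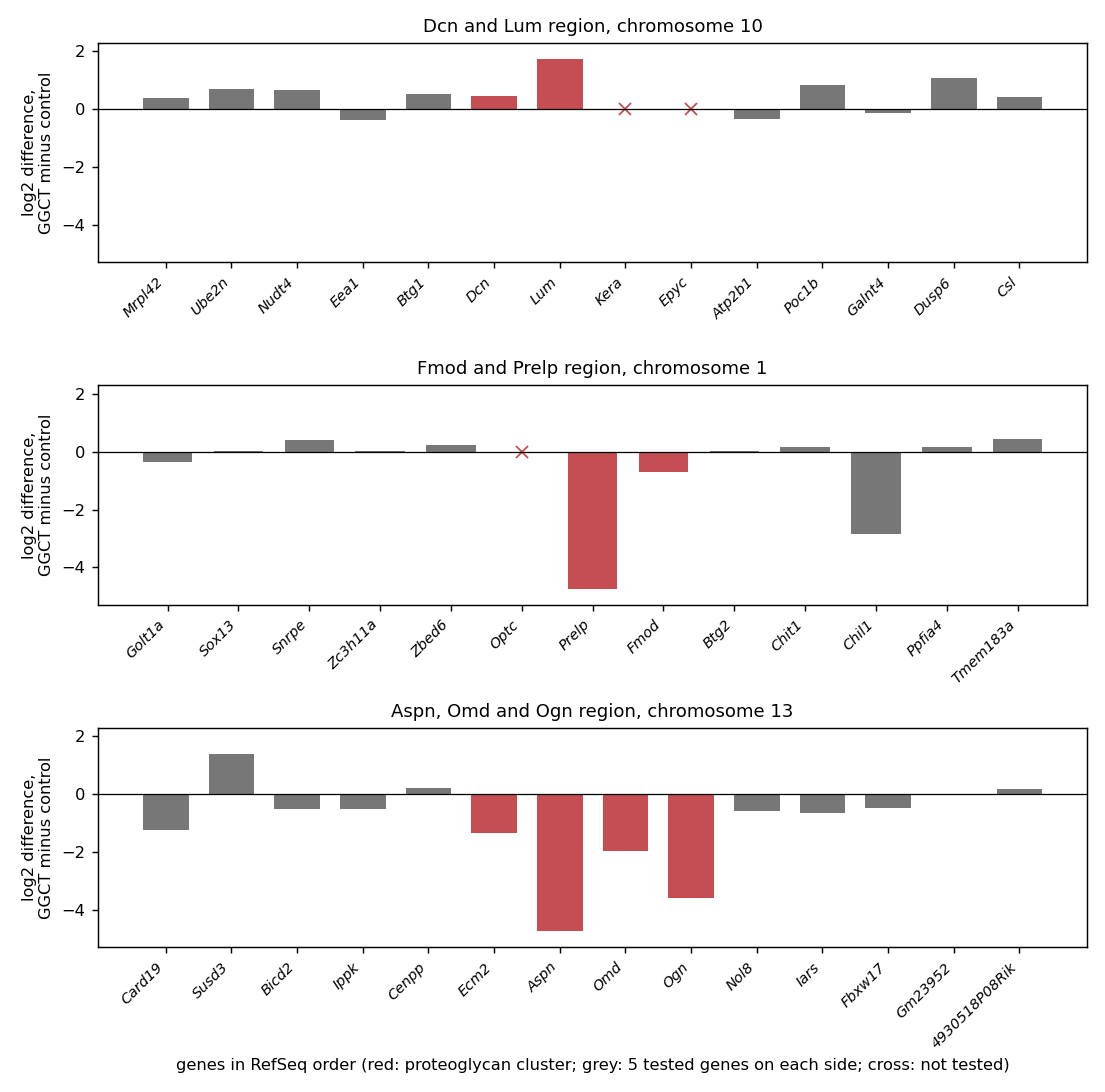
Log2 difference, GGCT minus control (vertical axis), of the genes of the 3 proteoglycan clusters (red) and of the 5 nearest tested named genes on each side (grey), in RefSeq gene order; crosses are cluster genes that were not tested. Aspn, Omd and Ogn reach further below 0 than any flanking gene of their cluster, and so does Prelp.

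Family members outside the 9 were mostly near background. Of 9 relatives with a probe, 4 could be tested, and 1 rose and 2 fell. These counts, and those of the lists below, stand beside 17.5% called higher and 17.3% lower over all genes tested. Chadl, a chondroadherin-like protein of cartilage, rose by 1.06 ± 0.26 (SE, limma adjusted p = 0.0233) on its brighter probe, which was well above background on 2 control arrays. Its second probe was not on any array, and the call was lost in 8 of 21 alternatives, among them the mean of both probes (0.51, adjusted p = 0.206) and normexp background (0.26). Tsku, the secreted signalling modulator tsukushi, fell by 0.44 ± 0.13 (adjusted p = 0.0389), a call lost in 12 of 22 alternatives (adjusted p up to 0.255). The 12 count slide 2 alone and leaving out both arrays of replicate 1 separately, although these use the same arrays. Podnl1, the closest relative of Podn, had a difference of -0.05 ± 0.09 (adjusted p = 0.741). Nyx, like Epyc and Kera, passed the background flag nowhere, and Chad did on 1 array.

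Enzymes that build the sugar chains moved both ways. Of 23 tested genes of the linker and of chondroitin or dermatan sulfate chains, 6 were higher and 9 lower, with a median difference of -0.08, against 0.02 over all genes tested. The sulfate donor synthases went in opposite directions, Papss1 up by 1.35 ± 0.10 (SE) and Papss2 with a difference of -1.03 ± 0.09 (limma adjusted p = 0.000348 and 0.000572). Of the chondroitin sulfotransferases, Chst3 rose by 2.29 ± 0.18 (adjusted p = 0.000404) and Chst7 fell by 1.00 ± 0.08 (adjusted p = 0.000462). In the list of keratan sulfate and tyrosine sulfation enzymes, 0 of 11 were higher and 4 lower at this threshold (median -0.08), namely the sialyltransferases St3gal1 (-1.03) and St3gal2 (-0.55), B3gnt2 (-0.45), which extends the chain, and the sulfotransferase Chst2 (-0.35).

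The list of matrix maturation and cleavage genes, which are not all enzymes, gave 1 higher and 4 lower of 9 tested (median -0.05). The membrane protease Mmp14 fell by 1.45 and the gelatinase Mmp2 by 0.97, the procollagen enhancer Pcolce fell by 0.84, and the aggrecanase Adamts4 rose by 1.55.

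Collagens and other fibril partners were the related list with the lowest median, -0.52, and 0 of 22 tested were higher and 13 lower. Tnxb, which encodes tenascin-X, fell by 2.51 ± 0.10 (SE, limma adjusted p = 4.25e-05), Col1a1 by 0.99 ± 0.10 and the crosslinking enzyme gene Lox by 1.30 ± 0.17. Col12a1, a collagen on the fibril surface, was not well above background with GGCT on this probe. By the rule used for Aspn it was at least 5.49-fold lower.

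Of 19 tested receptors and growth factors that these proteins bind, 4 were higher and 9 lower (median -0.30). Both Toll-like receptors of biglycan fell, with differences of -1.60 ± 0.11 for Tlr4 and -1.96 ± 0.18 for Tlr2 (SE, limma adjusted p = 0.000308 and 0.000759). Tgfb2 fell by 2.94 ± 0.21, and Met, a receptor that decorin binds, rose by 0.98 ± 0.10 (adjusted p = 0.000300 and 0.000935). The other matrix proteoglycans had 0 of 7 higher and 3 lower (median -0.34), namely Bcan, Agrn (-0.37) and Vcan (-0.69). Bcan was not well above background with GGCT and, by the rule used for Aspn, was at least 2.05-fold lower. Hapln4 had a difference of -0.34 (limma adjusted p = 0.0762). The members' own median over the 8 tested was -1.33, a value to which the choice of members and the filter both contribute.

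**Figure D4:**
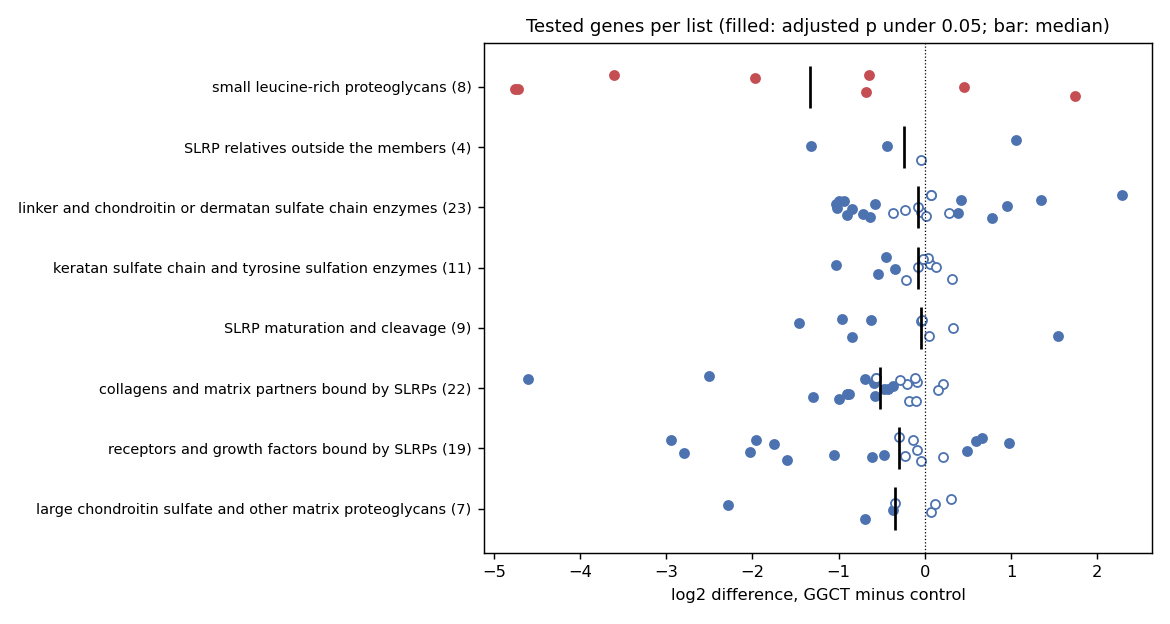
Log2 difference, GGCT minus control (horizontal axis), of the tested genes of the 9 members (red) and of 7 related lists (blue), with the number tested in parentheses; filled dots passed an adjusted p of 0.05, and bars are medians. The members spread from -4.76 to 1.75, and no tested gene of the collagen list passed the test above 0.

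Markers of cell types that make these proteins moved as well. Each sum below is set mostly by its brightest probes and is not the level of a cell type. By log2 control mean the brightest was Mkx for tendon (0.20), Sox9 for cartilage or bone (3.43), Itgam for leukocytes (4.75) and S100a4 for fibroblasts (9.79). The summed level of 6 smooth muscle and myofibroblast markers, in multiples of the array's 75th percentile, was 59.5 to 64.9 on control arrays and 26.4 to 28.5 on GGCT arrays, with 3 of 4 tested lower (Tagln, Myl9 and Acta2) and 1 higher (Cnn1). For 8 cartilage or bone markers the sums were 13.7 to 17.3 and 9.82 to 10.1, with 2 of 6 tested lower (Sox9 and Bglap, the latter flagged present on 1 GGCT array) and 1 higher (Runx2), while Acan and Ibsp passed the background flag nowhere. For 4 tendon markers they were 1.23 to 1.51 and 0.907 to 1.05, with Scx (flagged present on 1 GGCT array) and Mkx lower and Tnmd and Thbs4 not well above background on any array. The 11 fibroblast markers summed to 2048 to 2479 and 1572 to 1958, with 5 of 10 tested lower and 1 higher (Pdgfra). Those lower were Col1a1, Col1a2, Col3a1, Pdgfrb and P4hb, and the collagens among them are also in the collagen list. S100a4 was not called (limma adjusted p = 0.131). The 7 endothelial markers summed to 0.164 to 0.194 and 0.291 to 0.346, with Pecam1 and Cdh5 called higher. Cdh5 passed the background flag on 0 control and 3 GGCT arrays and so entered the test only through the GGCT arrays, and 4 of the 7 (Kdr, Tek, Emcn and Cldn5) passed the background flag nowhere. The part of these markers in the proteoglycan differences was not tested. Sums for epithelial, leukocyte and adipocyte markers overlapped between the groups (0.496 to 0.545 and 0.446 to 0.584, 24.9 to 34.4 and 24.8 to 31.2, and 0.559 to 0.648 and 0.497 to 0.603).

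The direction of the 8 tested members held in every alternative that gave a value. Over these alternatives the difference of Prelp lay between -4.84 and -4.46, of Ogn between -3.83 and -3.24, of Omd between -2.18 and -1.33, of Aspn between -4.96 and -1.26, of Lum between 0.70 and 1.84, of Bgn between -0.71 and -0.59, of Dcn between 0.43 and 0.53 and of Fmod between -0.91 and -0.24. For every tested member but Dcn, bright or dim, the value nearest to 0 was the one with normexp background.

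**Figure D5:**
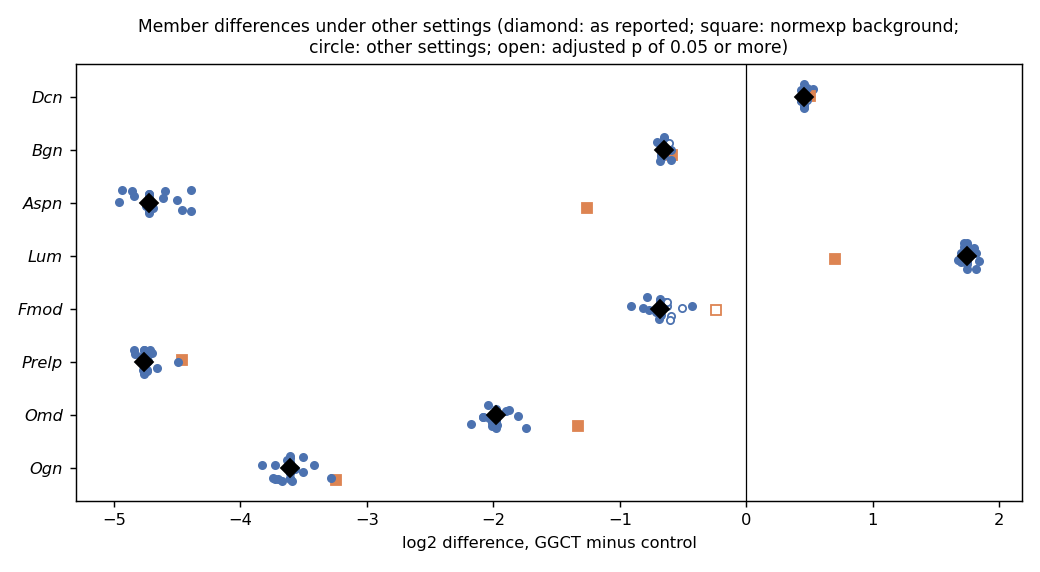
Log2 difference, GGCT minus control (horizontal axis), of the 8 tested members as reported (diamonds), with normexp background (squares) and under the other settings (circles), where open symbols have an adjusted p of 0.05 or more. Prelp, Ogn, Omd, Aspn and Lum keep filled symbols throughout, whereas Fmod, Bgn and Dcn have open ones.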

How the data were processed

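Total RNA of 6 NIH3T3 samples, 3 with the control vector and 3 with GGCT, was hybridised to Agilent 1-colour arrays. The authors deposited spot intensities from Agilent Feature Extraction 12.1.0.3, background-subtracted and detrended within each array per the file headers, with flags for spots well above background. They also deposited a log2 table, which equals the log2 intensity of each array minus a constant for bright probes. Control spots (3671 of 62976) and outlier spots (578 over the 6 arrays) were left out, and repeated spots were averaged. Accessions were looked up among RefSeq genes (GRCm38.p6), and 34550 of 56570 probes (61.1%) received a name. The headers carry 2 grid versions that name 522 probes differently, and the newer name was taken first. No saturated spot was found outside the controls.

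The 75th percentile of each array's log2 intensity was subtracted. Each gene took the values of its brightest probe and entered the test where 1 group or both had this probe flagged well above background on 3 of 3 arrays (23850 of 44908 genes or unnamed transcripts). Probes were also tested singly (31110). Differences were fitted with limma 3.58.1 (R 4.3.3) by lmFit, then eBayes, 2-sided and without a block, and called at a Benjamini-Hochberg adjusted p under 0.05 over everything tested. The fit was also run on simulated data with independent noise on each array. That run held no pair or slide effect, so it does not show how the fit behaves with them. The members, the lists and the alternatives were chosen with earlier results of these data known. The genes named are the members, every relative with a probe, Ggct, and from each other related list up to 4 tested genes with the smallest p. Flanking genes, taken by position, and cell type markers were named after their values were seen.

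Slide 1 (scan 1) held the arrays numbered 1 and slide 2 (scan 2) those numbered 2 and 3, control and GGCT alike. Deviations of same-numbered arrays from their group means correlated at 0.73, 0.45 and 0.36. The titles' numbers were therefore used for the pair differences, the replicate block and the settings that leave out a pair. The reported fit and the exact permutation tests did not use them and took the arrays as unpaired. Within slide 2, differently numbered arrays correlated at 0.30 and 0.34, so that number and slide are hard to separate there. With 3 arrays a group, precision is limited by their number.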

Additional observations from a re-analysis of the deposited data

How the results depend on the processing

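Of 22 alternatives, none changed the direction of a tested member, and the count of members called lower stayed between 4 and 6. Slide 2 alone and leaving out both arrays of replicate 1 use the same arrays but count as 2 of the 22. Over all genes or probes tested, the alternatives called 697 to 6655 higher and 1090 to 6211 lower. Leaving out arrays, singly or as same-numbered pairs, gave 1 to 2 members called higher and 4 to 6 called lower. Over all genes the same settings called 697 to 4588 higher and 1090 to 4549 lower, of 23930 to 24976 tested. In those settings the fewest members were called without both arrays of replicate 2 (1 higher, 4 lower). Without both arrays of replicate 3, 1 was higher and 5 lower. Without replicate 2, 1324 of all 24171 genes tested were called higher and 1643 lower, and without replicate 3, 697 and 1090 of 24976. With the replicate block the counts were 2 and 6, as reported, and no member's call changed. Over all genes it moved the calls from 4178 higher and 4115 lower to 6514 and 6211. The relative Podnl1, which did not pass the test, changed sign with normexp background (0.0095) and without GGCT replicate 3, and the cause was not tested. Leaving out arrays, its difference ran from -0.097 to 0.021. Shifting by the median or quantile normalization moved the median of all genes from 0.02 to -0.01 and 0.03. No filter on dim probes left 2 members higher and 5 lower, with 2228 higher and 2498 lower of all 44908 genes. Requiring signal well above background on all arrays left 2 members higher and 4 lower, since Fmod and Aspn were then not tested. Over all 22015 genes tested in that setting, 3871 were higher and 3681 lower. The normexp correction started from the median spot signal. Signal over background limits Aspn with GGCT, Fmod, Lum in control cells and Podn. The differences of Aspn, Fmod and Lum moved by over 1.5 times with normexp background, which was not run for Podn.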
